A study of Mus musculus with 12 samples.

Results

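The genes described here are 50 interferon-stimulated antiviral genes of the mouse, followed across cultured muscle stem cells that differed in a Pax3 reporter and in the plasmid they received. The set was given by gene symbol and holds sensors of viral nucleic acid, transcription factors of the interferon response, antiviral effectors, interferon-inducible GTPases and a pair of chemokines. Of the 50 symbols, 49 had a row among the 23586 genes measured, and Mx1 was not analysed here. Of these 49, 41 reached at least 10 normalized counts in at least 3 of the 12 libraries and were tested together with all 14580 genes that did so. The other 8 are given by their levels only.

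All cells came from mice carrying the Pax3nLacZ-IRES-GFP allele, which puts GFP under the control of Pax3, a transcription factor of muscle progenitors. Stem cells were sorted into GFP-positive and GFP-negative populations, grown in medium with serum and basic FGF, and lipofected with 2 µg of the expression plasmid pCR3, either carrying mouse Six2 coding DNA or empty. This gave 4 groups of 3 libraries, namely GFP-positive SIX2, GFP-positive control, GFP-negative SIX2 and GFP-negative control. Every library came from transfected cells, so there was no culture without foreign DNA or lipid reagent, and the sources used here give neither the age, the sex nor the muscle of origin of the animals. The labels do not say whether the 3 libraries within a group trace to different mice or dishes. The p-values therefore measure the spread between these libraries, which may be technical.

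Depth per library was 12632428 to 15492340 reads in GFP-positive SIX2, 31295165 to 47299937 in GFP-positive control, 34048869 to 40182810 in GFP-negative SIX2 and 12438885 to 33151990 in GFP-negative control samples. The transfected gene did not check the plasmid labels, since Six2 averaged 19.5 ± 11.5 normalized counts (SD, n = 3 each) with the SIX2 label against 7.34 ± 5.24 with the control label in GFP-positive libraries, and 21.9 ± 2.37 against 14.8 ± 10.1 in GFP-negative libraries. Its log2 differences were 1.26 (SE 0.68, adjusted p = 0.209) and 0.80 (SE 0.68, adjusted p = 0.421), both short of the threshold of an adjusted p under 0.05. Adjusted p-values here come from limma-trend on log2(normalized count + 1), with Benjamini-Hochberg adjustment over all tested genes. A value that passed is named as called, lower or higher, and an SE is that of the log2 difference. An RT-qPCR check of Six2 after transfection is stated in the labels and was not analysed here. Pax3 averaged 72.2 ± 19.0 normalized counts (SD, n = 3) in GFP-positive control libraries, against 71.4 ± 2.79 (SD, n = 3) in GFP-negative control ones, with a log2 difference of -0.01 (SE 0.41, adjusted p = 0.991). With the SIX2 label it was lower, by -2.82 (SE 0.41, adjusted p = 0.00029) in GFP-positive and -2.06 (SE 0.41, adjusted p = 0.0022) in GFP-negative libraries. Groups are therefore named by their labels throughout. The libraries held muscle RNA, with myogenin (Myog) averaging 80993, 92633, 73569 and 86896 normalized counts in the 4 groups in the order above. Of 18 leukocyte markers 10 had a row, among them neither Ptprc nor Tyrobp, and their summed normalized count was 191 to 241 in GFP-positive SIX2, 197 to 240.2 in GFP-positive control, 198 to 227 in GFP-negative SIX2 and 224 to 253 in GFP-negative control libraries. None of the 5 that were tested was called between the sorted populations under either plasmid label. Of all tested genes 0.192% were called there under SIX2 and 3.48% under control.

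Interferons are secreted when a cell senses foreign nucleic acid, RNA in the cytoplasm through RIG-I-like receptors and DNA through cGAS and STING. Type I interferons bind a receptor on the same and on neighbouring cells, whose JAK kinases act on a complex that holds STAT2 and IRF9 and binds the interferon-stimulated response element (ISRE) in target promoters. Interferon gamma acts through the gamma-activated site (GAS). The genes switched on include the sensors and transcription factors themselves, so the response feeds on its own products. Plasmid transfection delivers foreign DNA to a cell, and all 12 libraries share it.

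The promoters of 5 of these genes are shown because they carry the letters through which the response is known to act, or, for Oasl1, lack them. Each is the 300-base window of RefSeq on build GRCm38.p6, with 250 bases before and 50 bases after the annotated start, written 5′ to 3′ on the gene's strand. Capitals mark each match to the ISRE core on either strand, taken as GAAA, any 2 bases and GAAA again. A match on the opposite strand starts with TTTC, and overlapping matches run together. The windows are those of Isg15 (chr4:156200769-156201068, minus strand), Ifit1 (chr19:34640639-34640938, plus strand), Ddx60 (chr8:61927837-61928136, plus strand), Cxcl10 (chr5:92348840-92349139, minus strand) and Oasl1 (chr5:114922990-114923289, plus strand).
Isg15: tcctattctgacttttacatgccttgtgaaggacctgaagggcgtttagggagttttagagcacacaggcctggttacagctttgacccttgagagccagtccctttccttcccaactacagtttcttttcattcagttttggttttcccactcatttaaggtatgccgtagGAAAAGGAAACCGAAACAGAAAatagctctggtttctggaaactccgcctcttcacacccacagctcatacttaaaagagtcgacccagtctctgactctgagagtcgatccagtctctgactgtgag
Ifit1: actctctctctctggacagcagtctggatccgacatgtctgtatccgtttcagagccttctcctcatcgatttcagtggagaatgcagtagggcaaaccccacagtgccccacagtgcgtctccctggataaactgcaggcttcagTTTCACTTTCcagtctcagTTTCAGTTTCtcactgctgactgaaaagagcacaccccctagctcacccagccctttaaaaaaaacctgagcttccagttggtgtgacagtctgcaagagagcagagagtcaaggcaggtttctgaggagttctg
Ddx60: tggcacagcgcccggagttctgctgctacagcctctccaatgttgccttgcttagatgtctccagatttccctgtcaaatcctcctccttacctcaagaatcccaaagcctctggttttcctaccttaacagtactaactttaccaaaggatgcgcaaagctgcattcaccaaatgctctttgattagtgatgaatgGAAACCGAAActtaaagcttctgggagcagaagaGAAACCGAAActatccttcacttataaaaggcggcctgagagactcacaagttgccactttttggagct
Cxcl10: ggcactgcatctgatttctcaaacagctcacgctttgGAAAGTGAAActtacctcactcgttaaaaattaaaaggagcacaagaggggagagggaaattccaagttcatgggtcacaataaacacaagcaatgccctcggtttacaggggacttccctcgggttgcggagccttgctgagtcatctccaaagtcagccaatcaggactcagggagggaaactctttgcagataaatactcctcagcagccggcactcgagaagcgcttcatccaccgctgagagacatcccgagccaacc
Oasl1: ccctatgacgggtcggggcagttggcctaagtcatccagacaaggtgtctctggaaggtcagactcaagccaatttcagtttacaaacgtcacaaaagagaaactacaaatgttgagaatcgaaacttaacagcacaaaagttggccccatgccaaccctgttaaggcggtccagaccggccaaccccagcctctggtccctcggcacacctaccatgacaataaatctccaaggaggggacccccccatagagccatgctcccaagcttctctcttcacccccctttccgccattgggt

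Isg15 held 3 overlapping matches between 78 and 57 bases before its start, Ifit1 held 2 matches on the opposite strand between 104 and 76 bases before it, and Ddx60 held 2 between 53 and 10 bases before it. Cxcl10 had 1 match, 213 to 204 bases before its start, and Oasl1 had none. These 5 genes are among the 12 members with lower levels in the GFP-positive population under both plasmid labels, as described next.

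The summed level of the 49 genes ordered the 4 groups without overlap. It was 7033, 6841 and 6884 normalized counts in GFP-positive SIX2, 5368, 5428 and 4987 in GFP-positive control, 12391, 13019 and 13265 in GFP-negative SIX2 and 8395, 8355 and 7987 in GFP-negative control libraries. In each library the sum came to between 0.0189% and 0.0549% of the reads, so the set was a small part of the RNA of these cells. The most abundant members per kilobase of exon were the membrane proteins Ifitm2 and Ifitm3 and the mitochondrial protein Ifi27 in all 4 groups. Ifitm2 shares 48.5% of its 50-base transcript windows with other genes, 36.1% with Gm45717, so some of its reads may belong elsewhere. It stood at 2743, 1615, 3014 and 1825 normalized counts per kilobase in the 4 groups in the order above. Places 4 and 5 went to Trim25 and Bst2 in both GFP-positive groups and to Isg15 and Oasl1 in both GFP-negative groups.

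**Figure D1:**
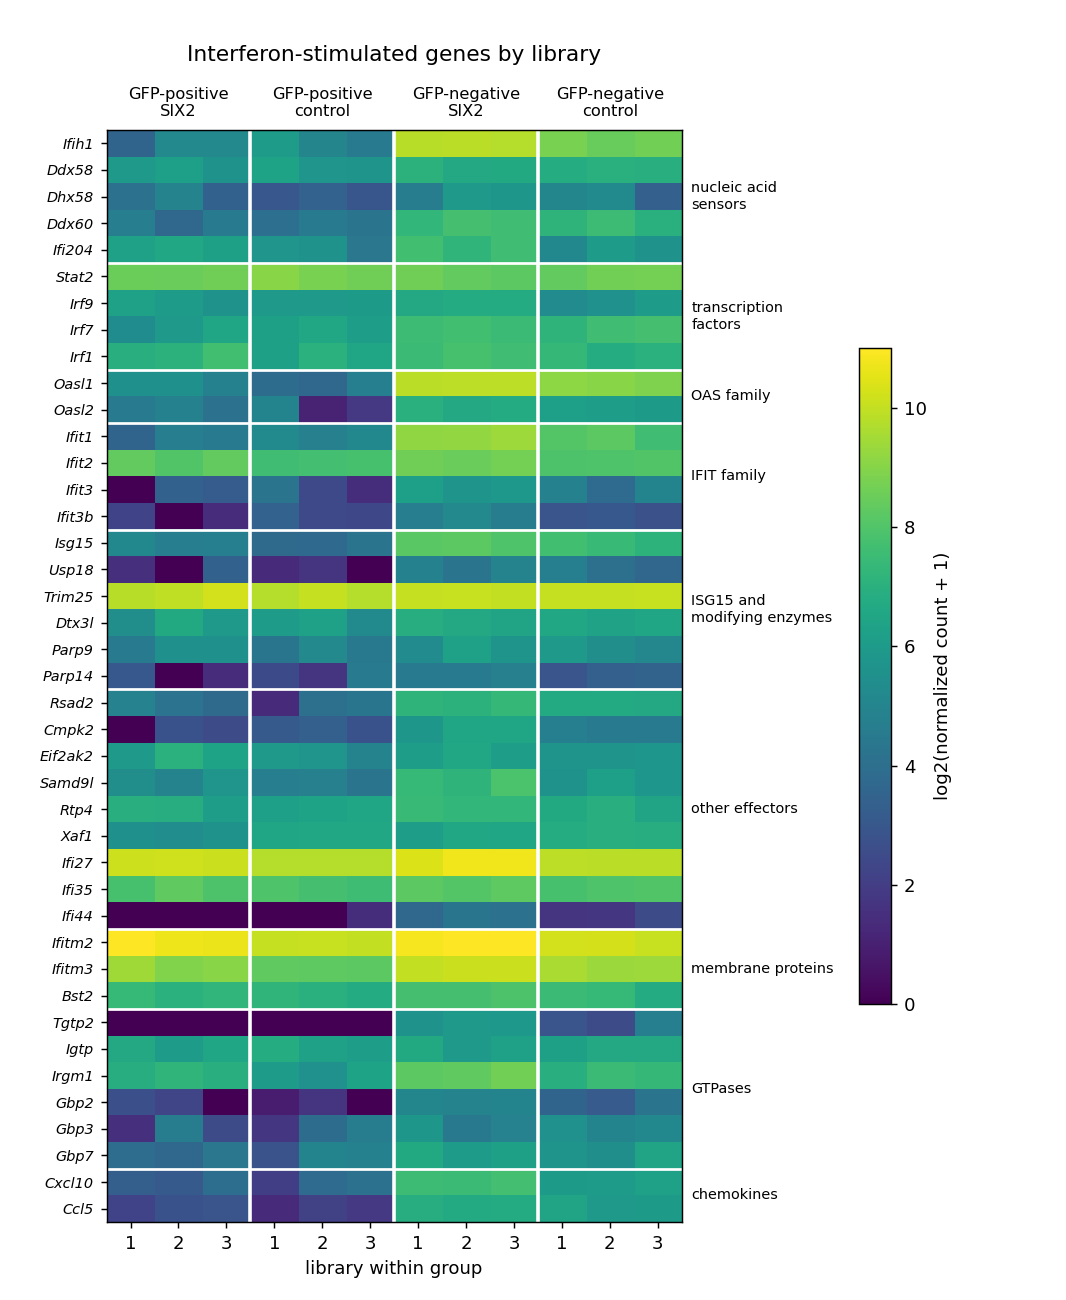
Level of the 41 tested members in each of the 12 libraries, as colour on a log2(normalized count + 1) scale, with members in rows by role and libraries in columns by group. The rows of Ifih1, Oasl1, Ifit1, Isg15, Tgtp2, Cxcl10 and Ccl5 are dark in all 6 GFP-positive libraries and lighter in all 6 GFP-negative ones, while Stat2, Trim25 and Igtp look alike throughout.

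The first question was how the sorted populations differed under each plasmid label. GFP-positive libraries held less RNA of many of these genes. Under the control label 15 of the 41 tested members were lower in GFP-positive libraries and 0 were higher, where 2.56% of all tested genes were lower, 0.919% were higher and 3.48% were called in either direction. Under the SIX2 label 15 members were again lower and 0 higher, where 0.178% of all tested genes were lower, 0.0137% were higher and 0.192% were called. On the recovered whole reads edgeR's quasi-likelihood test called 16 members under the control label, where it called 440 of all genes (3.02%), and 16 under the SIX2 label, where it called 29 (0.199%). DESeq2 called 16 under the control label, where it called 7.46% of all genes, and 17 under the SIX2 label, where it called 2.0%. All members called by either tool were lower. With limma-trend 26 genes of the whole table were lower in GFP-positive SIX2 libraries and 15 of them were these members. The other 11 were Apol9a, Apol9b, B2m, Gm14048, Gpnmb, H2-D1, Ptk2b, Ptn, Smoc2, Sulf1 and Tapbp. The median log2 difference of the tested members was -1.68 under the SIX2 label, against -0.02 for all tested genes, and -1.18 under the control label, against 0.00 for all tested genes. Of the 41 members 30 were without overlap and lower in GFP-positive SIX2 libraries, against 8.16% of all tested genes, and 0 were without overlap and higher, against 9.05%. Under the control label 25 were lower without overlap, against 14.1% of all tested genes, and 0 higher, against 13.0%. Members called in both were Ccl5, Cxcl10, Ddx60, Ifih1, Ifit1, Ifitm3, Irf7, Irgm1, Isg15, Oasl1, Samd9l and Tgtp2. These 12 are 80% of either list of 15. Over all tested genes 18 were lower under both labels, 69.2% of those lower under SIX2 and 4.83% of those lower under control. The members were chosen with these results known, and the 2 comparisons share no library, though they share 1 estimate of the spread.

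The filter on low values bears on these counts. Of the 41 tested members, 10 reached it through GFP-negative libraries alone (Usp18, Ifit3, Ifit3b, Dhx58, Cmpk2, Ifi44, Parp14, Tgtp2, Gbp2 and Ccl5), so they were tested because of their level there. Among the 31 that reached it in at least 3 libraries of each population, 11 were lower in GFP-positive libraries under the SIX2 label and 13 under the control label. The share over all genes that reached it in this way was not counted. The 0.178% and 2.56% given above are shares over all 14580 tested genes. The counts without overlap hold such members too. Of the 10, all but Dhx58 are among the 30 lower without overlap under the SIX2 label. Usp18, Cmpk2, Ifi44, Tgtp2, Gbp2 and Ccl5 are among the 25 lower without overlap under the control label. RNA was measured in bulk, so fewer cells with the response and less RNA per cell cannot be told apart.

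**Figure D2:**
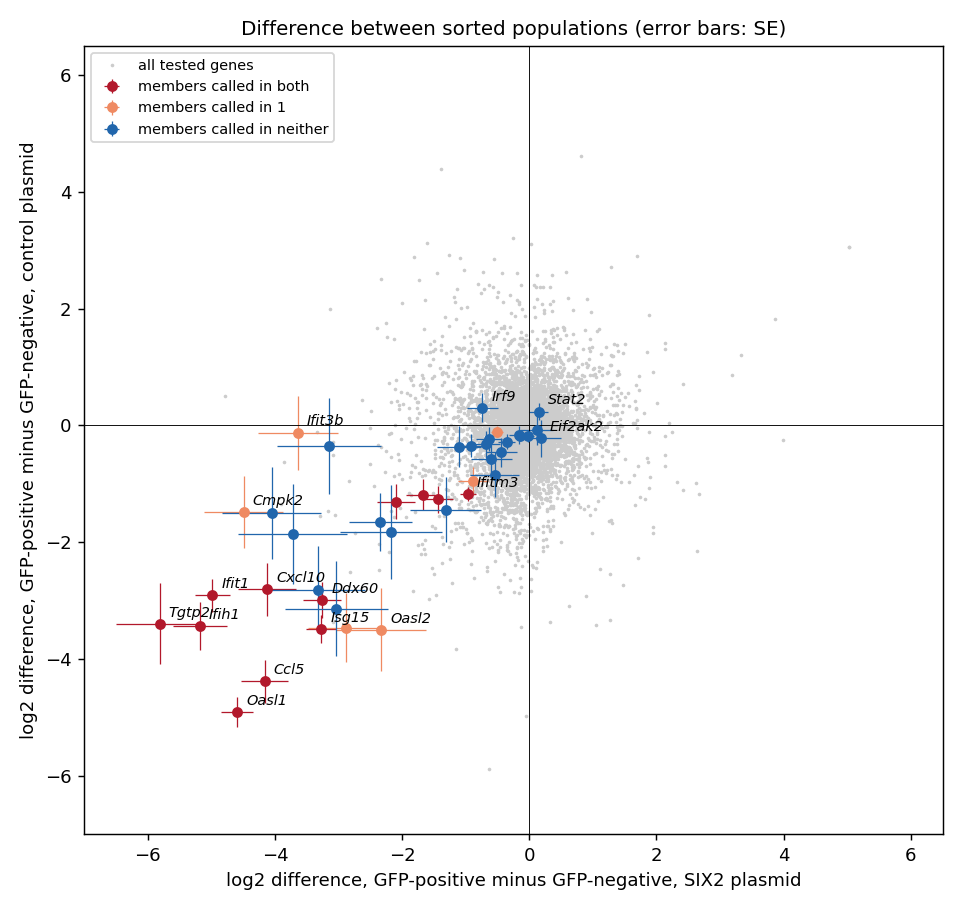
Log2 difference between the sorted populations (GFP-positive minus GFP-negative) under the SIX2 plasmid label on the horizontal axis and under the control plasmid label on the vertical axis, for all tested genes (grey) and the 41 tested members (colour), with bars of 1 SE. Members called under both labels lie at the lower left, with Oasl1 near -4.60 and -4.90, while most grey points gather near 0.

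Among the nucleic acid sensors, Ifih1 (MDA5, a receptor for long double-stranded RNA) had 10.7, 35.1 and 35.8 normalized counts in GFP-positive SIX2 against 899, 939.9 and 874 in GFP-negative SIX2 libraries. Under the control label it had 67.3, 31.0 and 21.9 in GFP-positive against 443, 348 and 407 in GFP-negative libraries. All 6 GFP-positive libraries lay far under the lowest GFP-negative library, and the log2 differences were -5.18 (SE 0.42, adjusted p = 3.3e-05) under SIX2 and -3.43 (SE 0.42, adjusted p = 0.00132) under control. Ddx60, a helicase that promotes RIG-I signalling, had 25.0, 11.7 and 22.8 in GFP-positive SIX2 against 157, 216 and 198 in GFP-negative SIX2 libraries. It had 15.3, 21.6 and 17.7 in GFP-positive control against 144, 187 and 126 in GFP-negative control libraries. The populations did not overlap, with log2 differences of -3.25 (SE 0.30, adjusted p = 0.000116) under SIX2 and -2.99 (SE 0.30, adjusted p = 0.000326) under control. RIG-I itself (Ddx58) differed less. It had 60.7, 72.1 and 48.8 in GFP-positive SIX2 against 133, 99.5 and 103 in GFP-negative SIX2 libraries, and the log2 difference of -0.88 (SE 0.24, adjusted p = 0.137) did not pass the threshold. Under the control label it had 83.4, 52.0 and 51.5 against 111, 125 and 119, a log2 difference of -0.95 (SE 0.24, adjusted p = 0.0451), and this call was lost without any single library among GFP-positive SIX2 2, GFP-positive control 2 and 3, GFP-negative SIX2 1, 2 and 3 and GFP-negative control 1, 2 and 3 (adjusted p = 0.0526 to 0.137), and under 5 other settings (adjusted p = 0.0658 to 0.166). The third receptor of that family, Dhx58 (LGP2), overlapped between the populations under both labels, and Ifi204, a DNA-binding protein of the HIN family, passed the threshold under neither, with log2 differences of -1.10 (SE 0.35, adjusted p = 0.211) under SIX2 and -0.36 (SE 0.35, adjusted p = 0.609) under control.

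Of the 4 transcription factors only Irf7 was called. Irf7, the factor that amplifies interferon production, had 39.3, 58.5 and 89.6 normalized counts in GFP-positive SIX2 against 188, 204 and 183 in GFP-negative SIX2 libraries, and 75.0, 91.9 and 71.7 in GFP-positive control against 141, 195 and 215 in GFP-negative control libraries. GFP-positive libraries were lower without overlap, with log2 differences of -1.68 (SE 0.26, adjusted p = 0.0167) and -1.18 (SE 0.26, adjusted p = 0.0294). The SIX2-label call was lost without GFP-positive SIX2 library 2 (adjusted p = 0.069), GFP-negative SIX2 library 2 (adjusted p = 0.102) or GFP-negative SIX2 library 3 (adjusted p = 0.0884), and with only the compared libraries fitted (adjusted p = 0.113), and the control-label call was lost without any single library among GFP-positive control 1 and 2 and GFP-negative control 1, 2 and 3 (adjusted p = 0.0585 to 0.106), and after quantile normalization (adjusted p = 0.0544). Stat2, a subunit of the ISRE-binding complex, had 369.8, 357 and 389 in GFP-positive SIX2 against 387, 327 and 298 in GFP-negative SIX2 libraries, and 532, 440.0 and 387 in GFP-positive control against 326, 409 and 415 in GFP-negative control libraries. Its ranges overlapped in both comparisons and the log2 differences were 0.15 (SE 0.15, adjusted p = 0.703) and 0.24 (SE 0.15, adjusted p = 0.395). For Irf9 the differences were -0.74 (SE 0.25, adjusted p = 0.235) under SIX2 and 0.30 (SE 0.25, adjusted p = 0.54) under control, and for Irf1 they were -0.44 (SE 0.25, adjusted p = 0.462) and -0.46 (SE 0.25, adjusted p = 0.322).

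The OAS family holds sensors and inhibitors that act on RNA, and Oasl1 represses translation of Irf7 in mice. Oasl1 had 44.7, 44.8 and 27.7 normalized counts in GFP-positive SIX2 against 922, 953 and 964 in GFP-negative SIX2 libraries. Under the control label it had 13.8, 12.2 and 26.2 against 565, 532 and 468. The highest GFP-positive library stood at 44.8 and the lowest GFP-negative one at 468, with log2 differences of -4.60 (SE 0.26, adjusted p = 6.72e-07) under SIX2 and -4.90 (SE 0.26, adjusted p = 5.71e-07) under control. Oasl2, which lies next to it on chromosome 5, had 21.4, 27.3 and 16.3 in GFP-positive SIX2 against 126, 100.1 and 108 in GFP-negative SIX2 libraries, and 30.6, 1.11 and 2.53 in GFP-positive control against 72.8, 71.4 and 62.8 in GFP-negative control libraries. Library 1 of GFP-positive control stood well above the other two of its group, and no GFP-positive library reached the lowest GFP-negative one. The log2 differences of Oasl2 were -2.33 (SE 0.71, adjusted p = 0.19) under SIX2 and -3.50 (SE 0.71, adjusted p = 0.0204) under control, and the control-label call was lost without any single library among GFP-positive control 2 and GFP-negative control 1, 2 and 3 (adjusted p = 0.0585 to 0.0908), and with only the compared libraries fitted (adjusted p = 0.0594) and with edgeR's quasi-likelihood test (adjusted p = 0.0542). Oas1a, Oas2 and Oas3, which make or resemble the enzymes that activate RNase L, stayed below the filter. Oas1a had 9.28, 3.29 and 10.2 in GFP-negative SIX2 libraries and at most 2.38 in any other library, and Oas2 and Oas3 had reads in GFP-negative libraries alone.

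The IFIT proteins bind viral RNA, and their genes lie together on chromosome 19. Ifit1, which binds RNA with an unmodified cap, had 10.7, 25.3 and 22.8 normalized counts in GFP-positive SIX2 against 585, 594 and 665 in GFP-negative SIX2 libraries. It had 36.7, 27.1 and 34.6 in GFP-positive control against 266, 297 and 199.8 in GFP-negative control libraries. The populations did not overlap, and the log2 differences were -4.98 (SE 0.28, adjusted p = 6.72e-07) under SIX2 and -2.91 (SE 0.28, adjusted p = 0.000304) under control. Its neighbour Ifit2 behaved otherwise, with 329, 255 and 327 in GFP-positive SIX2 against 388, 363 and 411 in GFP-negative SIX2 libraries, and 198, 207 and 219 in GFP-positive control against 242, 253 and 262 in GFP-negative control libraries. The groups did not overlap, yet those log2 differences of -0.36 (SE 0.13, adjusted p = 0.264) and -0.28 (SE 0.13, adjusted p = 0.252) did not pass the threshold. Ifit3 and Ifit3b share 51.2% of the 50-base windows of the Ifit3 transcript, so their reads may be split between them and their values are uncertain. Ifit3b had 3.57, 0 and 1.63 in GFP-positive SIX2 against 25.0, 34.9 and 24.1 in GFP-negative SIX2 libraries and 9.94, 4.43 and 4.22 in GFP-positive control against 6.43, 7.14 and 5.63 in GFP-negative control libraries. It was called lower under the SIX2 label alone, with log2 differences of -3.64 (SE 0.63, adjusted p = 0.0338) under SIX2 and -0.12 (SE 0.63, adjusted p = 0.939) under control, and the SIX2-label call was lost without any single library among GFP-positive SIX2 2 and 3, GFP-positive control 2 and 3 and GFP-negative control 1, 2 and 3 (adjusted p = 0.0505 to 0.0832), and under 3 other settings (adjusted p = 0.0604 to 0.19). Ifit3 itself had log2 differences of -3.72 (SE 0.86, adjusted p = 0.0952) and -1.86 (SE 0.86, adjusted p = 0.248).

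**Figure D3:**
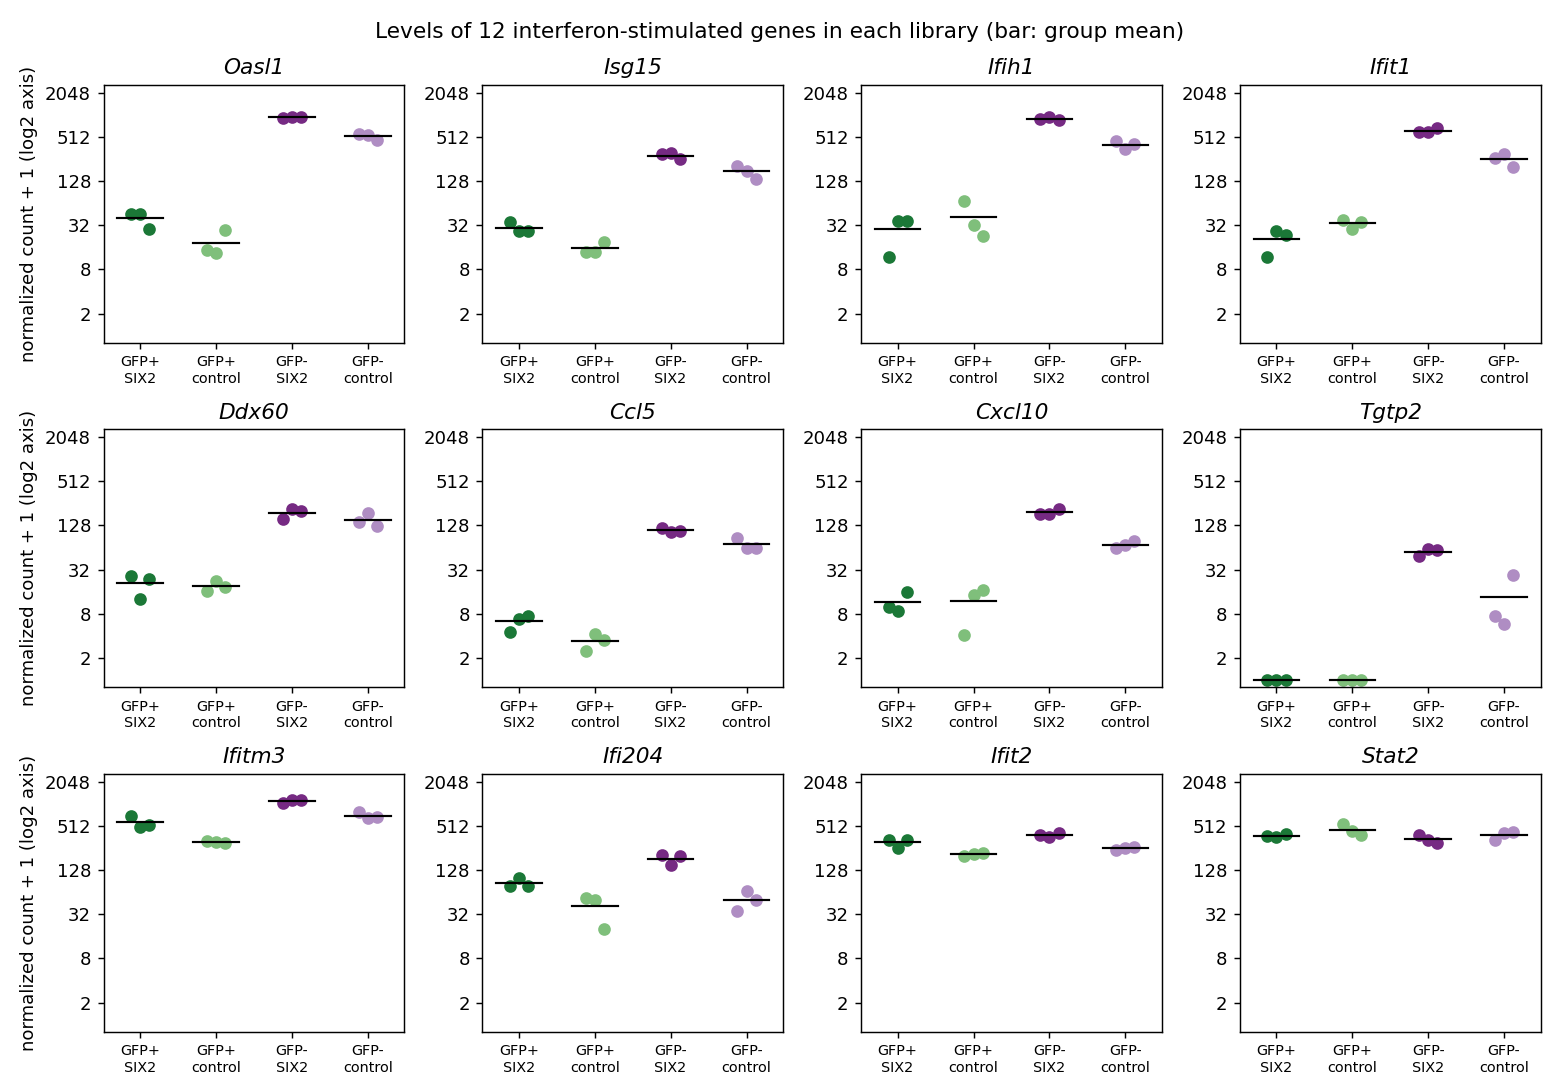
Normalized count + 1 on a log2 axis for 12 members in each library, with 3 points a group and a bar at the group mean. In the 9 panels from Oasl1 to Ifitm3 in reading order, every GFP-positive library lies under every GFP-negative library of the same plasmid label. The same holds, by a smaller difference, in the panel of Ifit2. In the panel of Stat2 the ranges of the populations overlap under both labels.

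ISG15 is a ubiquitin-like protein that is attached to other proteins during the response. Isg15 had 33.9, 25.3 and 26.1 normalized counts in GFP-positive SIX2 against 294, 303 and 250.2 in GFP-negative SIX2 libraries, and 13.0, 12.7 and 17.7 in GFP-positive control against 206, 176 and 137 in GFP-negative control libraries. The highest GFP-positive library lay under the lowest GFP-negative one, with log2 differences of -3.27 (SE 0.24, adjusted p = 1.09e-05) under SIX2 and -3.48 (SE 0.24, adjusted p = 7.42e-06) under control. Usp18, the protease that removes ISG15, had 1.79, 0 and 9.77 in GFP-positive SIX2 against 27.8, 17.8 and 29.5 in GFP-negative SIX2 libraries, and 1.53, 2.21 and 0 in GFP-positive control against 25.7, 15.9 and 11.3 in GFP-negative control libraries. Its log2 differences were -3.03 (SE 0.81, adjusted p = 0.135) under SIX2 and -3.14 (SE 0.81, adjusted p = 0.0509) under control, short of the threshold in both although the groups did not overlap. Trim25, the ubiquitin ligase of RIG-I, was among the most abundant members and differed little, with 909, 999.6 and 1213 in GFP-positive SIX2 against 1047, 1095 and 1011 in GFP-negative SIX2 libraries and a log2 difference of -0.02 (SE 0.11, adjusted p = 0.944). The ubiquitin ligase Dtx3l and its partner Parp9, and the ADP-ribosyltransferase Parp14, passed the threshold under neither label, with log2 differences between -3.15 and -0.35. Exons of Parp9 and Dtx3l overlap on opposite strands and the libraries do not mark the strand, so their reads cannot be told apart there.

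Of the other effectors, viperin (Rsad2), which makes a chain-terminating nucleotide, and its neighbour Cmpk2, a nucleotide kinase, lie side by side on chromosome 12. Rsad2 had 28.6, 17.5 and 13.0 normalized counts in GFP-positive SIX2 against 144, 132 and 161 in GFP-negative SIX2 libraries, a log2 difference of -2.89 (SE 0.59, adjusted p = 0.0781). Under the control label it had 1.53, 15.5 and 18.6 against 105, 104 and 97.6, a log2 difference of -3.46 (SE 0.59, adjusted p = 0.00938). Only the control-label difference of Rsad2 was called, and that call was lost without GFP-negative control library 1 (adjusted p = 0.0559). Cmpk2 had 0, 5.85 and 4.88 in GFP-positive SIX2 against 56.4, 89.6 and 87.2 in GFP-negative SIX2 libraries, a log2 difference of -4.49 (SE 0.62, adjusted p = 0.00533), and this call was lost without GFP-negative SIX2 library 2 (adjusted p = 0.055) or GFP-negative SIX2 library 3 (adjusted p = 0.0603), and with only the compared libraries fitted (adjusted p = 0.0818). With the control label it had 7.65, 9.41 and 5.91 against 25.7, 21.4 and 21.6, a log2 difference of -1.48 (SE 0.62, adjusted p = 0.202). For neither gene of the pair did the populations overlap under either label, with Rsad2 called under control and Cmpk2 under SIX2.

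Samd9l, an inhibitor of translation and growth, had 42.9, 29.2 and 52.1 normalized counts in GFP-positive SIX2 against 166, 140.3 and 235 in GFP-negative SIX2 libraries, a log2 difference of -2.10 (SE 0.30, adjusted p = 0.00637). In control libraries it had 25.2, 26.6 and 17.7 in GFP-positive against 49.3, 72.1 and 54.4 in GFP-negative ones, a log2 difference of -1.30 (SE 0.30, adjusted p = 0.0312). The groups did not overlap under either label, and the SIX2-label call was lost without GFP-negative SIX2 library 3 (adjusted p = 0.0751), while the control-label call was lost without any single library among GFP-positive control 1, 2 and 3 and GFP-negative control 1, 2 and 3 (adjusted p = 0.0579 to 0.116), and under 4 other settings (adjusted p = 0.0547 to 0.0628). Ifi27, a mitochondrial protein, had 1161, 1171 and 1102 in GFP-positive SIX2 against 1389, 1771 and 1771 in GFP-negative SIX2 libraries, a log2 difference of -0.51 (SE 0.09, adjusted p = 0.0443), and this call was lost without any single library among GFP-positive SIX2 1, 2 and 3, GFP-positive control 1, 2 and 3, GFP-negative SIX2 2 and 3 and GFP-negative control 1, 2 and 3 (adjusted p = 0.0527 to 0.256), and with only the compared libraries fitted (adjusted p = 0.231) and with the replicate block (adjusted p = 0.0972). Protein kinase R (Eif2ak2), which halts translation on double-stranded RNA, overlapped between the populations, with log2 differences of 0.18 (SE 0.32, adjusted p = 0.853) under SIX2 and -0.22 (SE 0.32, adjusted p = 0.755) under control. Ifi44 had 0 reads in all 3 GFP-positive SIX2 libraries and 12.1, 18.4 and 16.8 normalized counts in GFP-negative SIX2 libraries, at least 8.89-fold lower against a floor of 3 reads over the group, and its difference was not called. Ifi35, Rtp4 and Xaf1 were not called under either label.

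Among the membrane proteins, Ifitm3, which blocks the entry of enveloped viruses, had 691, 489 and 523 normalized counts in GFP-positive SIX2 against 1031, 1130 and 1131 in GFP-negative SIX2 libraries. In control libraries it had 321, 310.5 and 298 in GFP-positive against 782, 654 and 673 in GFP-negative ones. Both differences were without overlap, at -0.96 (SE 0.13, adjusted p = 0.00342) under SIX2 and -1.18 (SE 0.13, adjusted p = 0.000395) under control on the log2 scale. Ifitm2 had 2022, 1715 and 1653 in GFP-positive SIX2 against 1855, 2010 and 2058 in GFP-negative SIX2 libraries, and 1062, 1096 and 1015 in GFP-positive control against 1234, 1261 and 1091 in GFP-negative control libraries. Its ranges overlapped, and the log2 differences of -0.14 (SE 0.09, adjusted p = 0.534) and -0.17 (SE 0.09, adjusted p = 0.307) were not called. Tetherin (Bst2), which holds budding virus at the cell surface, had 163, 129 and 149.8 in GFP-positive SIX2 against 219, 217 and 246 in GFP-negative SIX2 libraries, and 146, 125 and 109.7 in GFP-positive control against 182, 166 and 108 in GFP-negative control libraries. Its log2 differences between the populations, neither of them called, were -0.63 (SE 0.20, adjusted p = 0.218) and -0.23 (SE 0.20, adjusted p = 0.563). Ifitm1 stayed below the filter, at most 7.14 in any library.

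The interferon-inducible GTPases act on vacuoles that hold pathogens. Tgtp2 had 0 reads in all 6 GFP-positive libraries, against 47.8, 60.6 and 57.7 normalized counts in GFP-negative SIX2 and 6.43, 4.76 and 26.3 in GFP-negative control libraries. Against a floor of 3 reads over the group it was at least 31.2-fold lower in GFP-positive SIX2 and at least 17.9-fold lower in GFP-positive control libraries, with adjusted p = 0.00153 and 0.0212, and the control-label call was lost without any single library among GFP-positive control 1 and 2 and GFP-negative control 1 and 3 (adjusted p = 0.0548 to 0.086), and with only the compared libraries fitted (adjusted p = 0.0716). Tgtp2 shares 89.8% of its 50-base transcript windows with Tgtp1, so these reads may belong to either. Irgm1, a regulator of the other GTPases, had 114, 144 and 119 in GFP-positive SIX2 against 296, 321 and 410.2 in GFP-negative SIX2 libraries, and 64.3, 45.9 and 82.7 in GFP-positive control against 120.0, 182 and 159 in GFP-negative control libraries. It was lower without overlap under both labels, with log2 differences of -1.43 (SE 0.23, adjusted p = 0.0206) and -1.27 (SE 0.23, adjusted p = 0.0133). Its SIX2-label call was lost without any single library among GFP-positive SIX2 1, 2 and 3 and GFP-negative SIX2 2 and 3 (adjusted p = 0.0556 to 0.186), and its control-label call was lost without GFP-positive control library 1 (adjusted p = 0.0521) or GFP-negative control library 2 (adjusted p = 0.0539). Igtp, another GTPase of this family, differed little, with 100.04, 66.3 and 87.9 in GFP-positive SIX2 against 101, 58.6 and 77.6 in GFP-negative SIX2 libraries and 112, 76.9 and 71.7 in GFP-positive control against 75.0, 98.3 and 97.6 in GFP-negative control libraries. Those ranges overlapped, with log2 differences of 0.11 (SE 0.26, adjusted p = 0.889) and -0.07 (SE 0.26, adjusted p = 0.912). The guanylate-binding proteins Gbp2, Gbp3 and Gbp7 had log2 differences between -3.33 and -1.65 and none was called. Gbp7 had 14.3, 11.7 and 19.5 in GFP-positive SIX2 against 103, 64.5 and 75.2 in GFP-negative SIX2 libraries, and 6.12, 30.4 and 27.8 in GFP-positive control against 51.4, 43.6 and 84.4 in GFP-negative control libraries, without overlap under either label. Gbp2 had 5.36, 3.90 and 0 in GFP-positive SIX2 against 32.1, 29.0 and 30.7 in GFP-negative SIX2 libraries, and it too did not overlap under either label.

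Both chemokines, which draw T cells and other leukocytes to inflamed tissue, were lower. Ccl5 had 3.57, 5.85 and 6.51 normalized counts in GFP-positive SIX2 against 116, 104 and 108 in GFP-negative SIX2 libraries. It had 1.53, 3.32 and 2.53 in GFP-positive control against 85.7, 61.8 and 62.8 in GFP-negative control libraries. The highest GFP-positive library stood at 6.51 and the lowest GFP-negative one at 61.8, with log2 differences of -4.16 (SE 0.37, adjusted p = 8.11e-05) under SIX2 and -4.38 (SE 0.37, adjusted p = 7.13e-05) under control. Cxcl10 had 8.93, 7.79 and 14.7 in GFP-positive SIX2 against 183, 183 and 212 in GFP-negative SIX2 libraries, and 3.06, 13.3 and 16.0 in GFP-positive control against 62.1, 67.4 and 76.9 in GFP-negative control libraries. Again no library crossed between the populations, with log2 differences of -4.12 (SE 0.46, adjusted p = 0.000779) and -2.80 (SE 0.46, adjusted p = 0.00748). With all libraries thinned to the reads of the smallest, an alternative chosen after seeing the data, these Cxcl10 calls were lost at adjusted p = 0.0988 and 0.0643.

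The second question was how the SIX2 label moved these genes within a population, with the library values as given above. In GFP-negative libraries 16 of the 41 tested members were higher with the SIX2 label and 0 were lower, where 13.6% of all tested genes were higher, 14.3% were lower and 27.9% were called in either direction. Their median log2 difference was 0.65, against 0.00 for all tested genes. The filter bears on this count too, since 5 members (Ifit3b, Ifi44, Parp14, Tgtp2 and Gbp2) would not have reached it without the GFP-negative SIX2 group, and 2 of the 16 calls, those of Ifit3b and Tgtp2, are of these. In GFP-positive libraries 9 were higher and 1 was lower, where 12.1% were higher, 11.2% were lower and 23.3% were called, and the median was 0.22 against -0.01. The 10 called in GFP-positive libraries were 24.4% of the members, near the share of all genes, and the 16 in GFP-negative libraries were 39.0%. edgeR called 19 members higher in GFP-negative libraries, where it called 4064 of all genes (27.9%), and 10 in GFP-positive libraries, where it called 3299 (22.6%). DESeq2 called 18 in GFP-negative libraries, where it called 30.9% of all genes, and 10 in GFP-positive ones, where it called 25.4%. Without overlap, 28 members were higher and 1 was lower with the SIX2 label in GFP-negative libraries, where 22.8% of all genes were higher and 23.5% lower. These 28 include all 5 members that would not have reached the filter without the GFP-negative SIX2 group. In GFP-positive libraries 11 were higher and 4 lower without overlap, where 18.7% of all genes were higher and 18.1% lower. These comparisons share the 4 groups with those between the populations and are given side by side. In the GFP-negative comparison the count was 9 without any single GFP-negative SIX2 library or without GFP-negative control library 2, 10 without GFP-negative control library 3, and 26 when only the 6 libraries compared were fitted. In the GFP-positive comparison it was 6 of 10 when only the compared libraries were fitted.

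Some markers of other cell types were called between the plasmid labels, in both directions. Of all tested genes 23.3% were called there within the GFP-positive population and 27.9% within the GFP-negative one. The lists of other cell types are too short to show whether their markers moved more often than that. Of the 5 tested leukocyte markers Csf1r, the receptor of a macrophage growth factor, was higher with it, at 2.07 (SE 0.68, adjusted p = 0.0413) in GFP-positive and 2.44 (SE 0.68, adjusted p = 0.0166) in GFP-negative libraries, and the other 4 were not called. Of 5 tested fibro-adipogenic markers Ly6a and Smoc2 were higher in both populations, Ly6a by 2.36 (SE 0.43, adjusted p = 0.00157) and 1.75 (SE 0.43, adjusted p = 0.00859), and Smoc2 by 1.22 (SE 0.30, adjusted p = 0.00927) and 2.14 (SE 0.30, adjusted p = 0.000169). Of 5 tested pericyte and smooth muscle markers 2 were higher and 1 was lower in either population, with Notch3 higher in both. The lower one was Cspg4, by -0.84 (SE 0.18, adjusted p = 0.00448) and -0.78 (SE 0.18, adjusted p = 0.00593). Vwf, the 1 tested endothelial marker, was lower by -1.07 (SE 0.34, adjusted p = 0.0345) and -1.61 (SE 0.34, adjusted p = 0.00309). Of 11 tested markers of muscle stem cells and myoblasts, 3 were higher and 3 lower within the GFP-positive population. That is 27.3% each way, beside 12.1% and 11.2% of all tested genes. Within the GFP-negative population 3 were higher and 6 lower, or 27.3% and 54.5% beside 13.6% and 14.3%. Pax7, Myf5 and Vcam1 were called higher in both populations, and Myog, Ncam1 and Des were called lower in both. Cdh15, Itga7 and Chrna1 were called lower in the GFP-negative population alone. Summed normalized counts of the fibro-adipogenic list were 2974 to 3180 in GFP-positive SIX2 against 2772 to 3267 in GFP-positive control libraries, and 3393 to 3799 in GFP-negative SIX2 against 3401 to 3791 in GFP-negative control libraries. Most of that sum is Gsn, a widely expressed actin-binding protein. Between the sorted populations under the SIX2 label Smoc2 was lower in GFP-positive libraries as well, by -1.73 (SE 0.30, adjusted p = 0.0313). The part of these cell types in the members' differences was not tested.

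**Figure D4:**
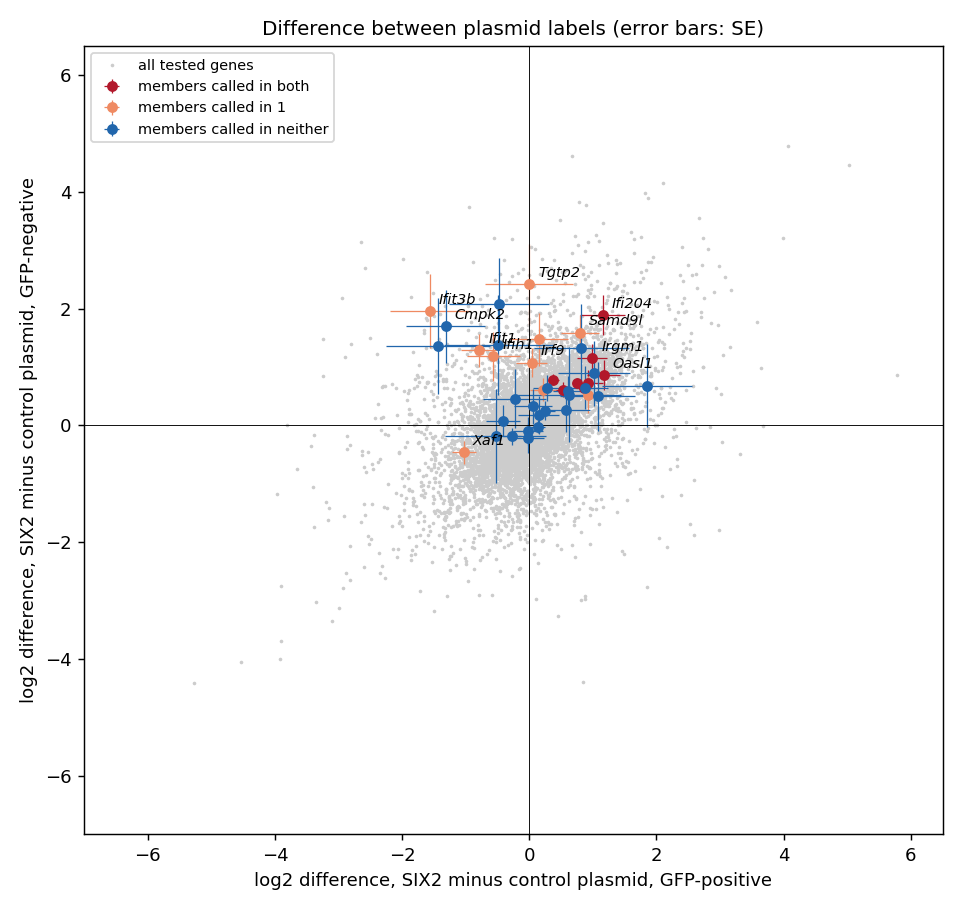
Log2 difference between plasmid labels (SIX2 minus control) in GFP-positive libraries on the horizontal axis and in GFP-negative libraries on the vertical axis, for all tested genes (grey) and the 41 tested members (colour), with bars of 1 SE. Ifi204, Irgm1 and Oasl1 lie at the upper right, Tgtp2 and Irf9 near 0 on the horizontal axis, Ifit1 and Ifit3b at the upper left and Xaf1 at the lower left.

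The members called higher with the SIX2 label in both populations were Ifi204, Ifi27, Ifit2, Ifitm2, Ifitm3, Irgm1, Isg15 and Oasl1. These 8 are 50% of the 16 called in GFP-negative libraries and 88.9% of the 9 called in GFP-positive ones. Over all tested genes 1082 were higher in both, 54.5% of those higher in GFP-negative libraries and 61.5% of those higher in GFP-positive ones, so the members' share in GFP-negative libraries was no larger than that of all genes. Ifi204 averaged 83.6 ± 12.0 in GFP-positive SIX2 against 40.1 ± 18.1 normalized counts in GFP-positive control libraries, and 181 ± 30.3 in GFP-negative SIX2 against 49.1 ± 15.0 in GFP-negative control libraries (SD, n = 3 each). The single values were 76.8, 97.4 and 76.5 in GFP-positive SIX2 against 52.8, 48.2 and 19.4 in GFP-positive control libraries, without overlap. They were 201, 146 and 197 in GFP-negative SIX2 against 34.3, 64.2 and 48.8 in GFP-negative control libraries, again without overlap. The log2 differences were 1.15 (SE 0.35, adjusted p = 0.028) in GFP-positive and 1.89 (SE 0.35, adjusted p = 0.00126) in GFP-negative libraries, and the GFP-positive call was lost without GFP-positive SIX2 library 1 (adjusted p = 0.0505), GFP-positive SIX2 library 2 (adjusted p = 0.0924) or GFP-positive control library 3 (adjusted p = 0.101), and with only the compared libraries fitted (adjusted p = 0.0791). Ifi204 shares 23.2% of its transcript windows with its relative Ifi211, so reads may be split between them.

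Ifitm2, with the shared sequence given above, and Ifitm3 rose with the SIX2 label in both populations, Ifitm2 by log2 differences of 0.76 (SE 0.09, adjusted p = 6.12e-05) in GFP-positive and 0.73 (SE 0.09, adjusted p = 7.71e-05) in GFP-negative libraries and Ifitm3 by 0.86 (SE 0.13, adjusted p = 0.000309) and 0.64 (SE 0.13, adjusted p = 0.00183). Ifit2 rose by 0.53 (SE 0.13, adjusted p = 0.00862) in GFP-positive and 0.62 (SE 0.13, adjusted p = 0.00301) in GFP-negative libraries. Ifi27 had 871, 882 and 886 normalized counts in GFP-positive control and 975, 947 and 925 in GFP-negative control libraries, and every SIX2 library lay above the control libraries of its own population. Its log2 differences were 0.38 (SE 0.09, adjusted p = 0.0092) in GFP-positive and 0.78 (SE 0.09, adjusted p = 5.61e-05) in GFP-negative libraries. For Irgm1 they were 0.99 (SE 0.23, adjusted p = 0.00753) and 1.16 (SE 0.23, adjusted p = 0.00235). These 5 (Ifitm2, Ifitm3, Ifit2, Ifi27 and Irgm1) kept their calls in both populations under every alternative run. Isg15 rose by 0.93 (SE 0.24, adjusted p = 0.0119) in GFP-positive and 0.72 (SE 0.24, adjusted p = 0.0367) in GFP-negative libraries, and Oasl1 by 1.17 (SE 0.26, adjusted p = 0.00543) and 0.86 (SE 0.26, adjusted p = 0.0241). The GFP-negative call of Isg15 was lost without any single library among GFP-negative SIX2 1, 2 and 3 and GFP-negative control 2 and 3 (adjusted p = 0.0571 to 0.143), and under 3 other settings (adjusted p = 0.0516 to 0.0791), and that of Oasl1 was lost without any single library among GFP-negative SIX2 1, 2 and 3 and GFP-negative control 2 and 3 (adjusted p = 0.0549 to 0.0825). In GFP-positive libraries both were lost when only the compared libraries were fitted, at adjusted p = 0.136 for Isg15 and 0.0957 for Oasl1.

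A further 8 members were called higher with the SIX2 label in GFP-negative libraries and not in GFP-positive ones. Tgtp2, which was tested only because of its level in GFP-negative SIX2 libraries, had a log2 difference of 2.41 (SE 0.70, adjusted p = 0.0197), with library 3 of the GFP-negative control group well above the other two, and it had no reads in GFP-positive libraries. Samd9l rose by 1.59 (SE 0.30, adjusted p = 0.00141) in GFP-negative libraries, with 0.79 (SE 0.30, adjusted p = 0.07) in GFP-positive ones. Irf9, the DNA-binding subunit of the ISRE complex, had 97.8, 107 and 109 normalized counts in GFP-negative SIX2 against 38.6, 46.8 and 64.7 in GFP-negative control libraries, while GFP-positive libraries had 76.8, 66.3 and 47.2 with SIX2 against 58.9, 60.3 and 62.4 with control. Only the GFP-negative groups lay apart, with log2 differences of 1.08 (SE 0.25, adjusted p = 0.00546) in GFP-negative and 0.04 (SE 0.25, adjusted p = 0.931) in GFP-positive libraries. Cxcl10 rose by 1.48 (SE 0.46, adjusted p = 0.0279) in GFP-negative libraries, with 0.16 (SE 0.46, adjusted p = 0.849) in GFP-positive ones. Bst2 rose by 0.61 (SE 0.20, adjusted p = 0.0366) in GFP-negative libraries. Irf9 and Samd9l kept the call under every alternative, while the call of Tgtp2 was lost without any single library among GFP-negative SIX2 1, 2 and 3 and GFP-negative control 1 and 2 (adjusted p = 0.0512 to 0.0927), that of Cxcl10 was lost without any single library among GFP-negative SIX2 1, 2 and 3 and GFP-negative control 1, 2 and 3 (adjusted p = 0.055 to 0.0855), and without a filter (adjusted p = 0.0529) and after thinning to the smallest library (adjusted p = 0.315) and that of Bst2 was lost without any single library among GFP-negative SIX2 1, 2 and 3 and GFP-negative control 2 and 3 (adjusted p = 0.0519 to 0.153), and under 3 other settings (adjusted p = 0.0575 to 0.0938).

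Ifit1, Ifit3b and Ifih1 were higher with the SIX2 label in GFP-negative libraries and had negative differences that were not called in GFP-positive ones. Ifit1 had a log2 difference of 1.29 (SE 0.28, adjusted p = 0.00399) in GFP-negative libraries, where 615 ± 43.8 normalized counts in SIX2 stood against 254 ± 49.4 in control libraries (SD, n = 3 each). In GFP-positive libraries it averaged 19.6 ± 7.81 in SIX2 against 32.8 ± 5.04 in control libraries (SD, n = 3 each), without overlap, and the log2 difference of -0.79 (SE 0.28, adjusted p = 0.0585) was not called. Ifit3b, tested only because of its level in GFP-negative SIX2 libraries, had 1.96 (SE 0.63, adjusted p = 0.034) in GFP-negative and -1.56 (SE 0.63, adjusted p = 0.0926) in GFP-positive libraries, and Ifih1 had 1.18 (SE 0.42, adjusted p = 0.0494) and -0.56 (SE 0.42, adjusted p = 0.374). The GFP-negative call of Ifit1 held under every alternative. That of Ifih1 was lost without any single library among GFP-positive control 2, GFP-negative SIX2 1, 2 and 3 and GFP-negative control 1, 2 and 3 (adjusted p = 0.0599 to 0.137), and under 5 other settings (adjusted p = 0.0539 to 0.0973), and that of Ifit3b was lost without GFP-negative control library 1 (adjusted p = 0.0757), GFP-negative control library 2 (adjusted p = 0.0734) or GFP-negative control library 3 (adjusted p = 0.0855), and with a pseudocount of 0.5 (adjusted p = 0.0649) and after quantile normalization (adjusted p = 0.0557).

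Whether the label effect differed between the populations was tested as an interaction, taken as the effect in GFP-positive minus that in GFP-negative libraries. No member was called with limma-trend, where 0.0% of all tested genes were, and the smallest adjusted p among the members was that of Ifit1, with a log2 interaction of -2.08 (SE 0.40, adjusted p = 0.0751). At an unadjusted p under 0.05 there were 9 members of 41, against 16.7% of all tested genes. These 9 were Ifit1, Ifit3b, Ifih1, Cmpk2, Irf9, Ifi44, Ifi27, Parp14 and Tgtp2, and the interaction was negative for all of them. Ifit3b, Ifi44, Parp14 and Tgtp2 were tested only because of their level in GFP-negative SIX2 libraries. A high level there makes the interaction negative by itself, so no conclusion is drawn from the shared sign. edgeR's quasi-likelihood test called 0 members, where it called 0.0% of all genes, and DESeq2 called 1, which was Ifit1, where it called 3.86%. DESeq2 gave most members no adjusted p for the interaction, so they could not be called. Ifit3b, Cmpk2, Irf9, Ifi44, Parp14 and Tgtp2 of the 9 above were among them, so its count of 1 cannot be read as a share of the 41. With limma's library weights Ifit1 and Ifit3b were called, and Ifit1 alone was called without GFP-positive SIX2 library 3 or GFP-positive control library 3. That a member was called in one population and not in the other is therefore not shown to be a difference between them.

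Eif2ak2 and Xaf1 were called in GFP-positive libraries alone, and neither was among the members with an interaction at an unadjusted p under 0.05. Eif2ak2 had 60.7, 131 and 81.4 normalized counts in GFP-positive SIX2 against 58.9, 52.0 and 29.5 in GFP-positive control libraries, a log2 difference of 0.93 (SE 0.32, adjusted p = 0.0483). Library 2 of the SIX2 group was the highest, and the call was lost without any single library among GFP-positive SIX2 2 and 3, GFP-positive control 2 and 3, GFP-negative SIX2 1, 2 and 3 and GFP-negative control 1, 2 and 3 (adjusted p = 0.0559 to 0.192), and under 3 other settings (adjusted p = 0.0744 to 0.126). In GFP-negative libraries Eif2ak2 had 68.5, 94.8 and 68.0 with SIX2 against 51.4, 51.5 and 54.4 with control. It was higher there without overlap too, but the log2 difference of 0.53 (SE 0.32, adjusted p = 0.239) was not called. Xaf1, which promotes cell death by binding the inhibitor XIAP, was the single member called lower with the SIX2 label. It had 44.7, 40.9 and 47.2 in GFP-positive SIX2 against 86.4, 94.6 and 92.0 in GFP-positive control libraries, a log2 difference of -1.02 (SE 0.19, adjusted p = 0.00193). The SIX2 libraries were lower without overlap, and GFP-negative libraries had 69.3, 96.2 and 89.6 with SIX2 against 111, 121 and 116 with control, also without overlap, at -0.46 (SE 0.19, adjusted p = 0.0953). After thinning to the smallest library the GFP-positive call was lost at adjusted p = 0.0562.

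Of the 41 tested members 16 were called in none of these 4 comparisons. They were Ifit3, Usp18, Dhx58, Trim25, Dtx3l, Parp9, Parp14, Rtp4, Ifi35, Ifi44, Stat2, Irf1, Igtp, Gbp2, Gbp3 and Gbp7. Exons of 11 tested members overlap a gene on the opposite strand, which these libraries cannot separate. These 11 are Oasl1, Usp18, Dhx58, Irf7, Irf1, Ifi35, Eif2ak2, Parp9, Dtx3l, Gbp2 and Cxcl10, and the overlap for Oasl1 is 38 bases.

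The 8 members below the filter had at most between 4.21 and 15.6 normalized counts in any library. Zbp1, a sensor of left-handed nucleic acid, had 0, 0 and 0 in GFP-positive SIX2, 0, 0 and 0.844 in GFP-positive control, 7.85, 3.29 and 6.62 in GFP-negative SIX2 and 10.7, 6.34 and 0 in GFP-negative control libraries. Iigp1, a GTPase, had 0, 0 and 0 in GFP-positive SIX2, 0, 0.553 and 0 in GFP-positive control, 0, 9.22 and 7.82 in GFP-negative SIX2 and 12.9, 3.17 and 1.88 in GFP-negative control libraries. Tgtp1 had reads in 2 GFP-negative SIX2 libraries alone. Thus Oas2, Oas3, Tgtp1, Zbp1 and Iigp1 had 0 reads in all 3 GFP-positive SIX2 libraries. Mx2, a polymorphic pseudogene in the annotation used, reached its highest value of 15.6 in GFP-positive SIX2 library 2. Members at 0 numbered 9 to 11 in GFP-positive SIX2, 7 to 9 in GFP-positive control, 0 to 3 in GFP-negative SIX2 and 2 to 5 in GFP-negative control libraries, and GFP-positive SIX2 libraries were also among the shallowest.

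Genes upstream of this response were looked up as well. Of 14 interferon genes looked up, Ifnz alone had a row, at no more than 5.71 normalized counts in any library, and the other 13 were not analysed here. Of 16 tested genes for interferon receptors, JAK and STAT proteins and feedback inhibitors, 0 were called between the populations under the SIX2 label and 1 was lower in GFP-positive control libraries, the phosphatase Ptpn2 at -0.33 (SE 0.08, adjusted p = 0.0493). Their median log2 difference was -0.05 under SIX2 and -0.03 under control. Of all tested genes 0.192% were called under SIX2 and 3.48% under control, so these low counts are near the share of all genes. With the SIX2 label the receptor chain Ifnar1 and the kinase Jak1 were higher in GFP-negative libraries, at 0.26 (SE 0.08, adjusted p = 0.0304) and 0.34 (SE 0.07, adjusted p = 0.00405), and Ifnar2 and Tyk2 were lower. In GFP-positive libraries 3 were higher (Ifnar1, Il10rb and Socs3) and 1 was lower (Stat3), beside 12.1% and 11.2% of all tested genes. Socs3, a feedback inhibitor, had the largest of these log2 differences at 1.72 (SE 0.41, adjusted p = 0.00786).

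Of 15 tested genes for sensing of nucleic acid upstream of interferon, 0 were called between the populations under either plasmid label. That is near the share of all tested genes, 0.192% under SIX2 and 3.48% under control. With the SIX2 label 2 were higher in GFP-positive libraries (Myd88 and Sting1), which is 13.3% beside 12.1% of all tested genes. In GFP-negative libraries 4 were higher (Myd88, Cgas, Sting1 and Ikbke), which is 26.7% beside 13.6%. Sting1, the adaptor of cytoplasmic DNA sensing, had 0.93 (SE 0.16, adjusted p = 0.000901) in GFP-positive and 0.76 (SE 0.16, adjusted p = 0.00282) in GFP-negative libraries. Cgas, the DNA sensor before it, averaged 97.1 ± 9.93 in GFP-negative SIX2 against 50.3 ± 11.7 normalized counts in GFP-negative control libraries (SD, n = 3 each), a log2 difference of 0.95 (SE 0.24, adjusted p = 0.0101).

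Of the genes of MHC class I presentation, which interferon also raises, 10 were tested. Under the SIX2 label 3 were lower in GFP-positive libraries (H2-D1, B2m and Tapbp), and under the control label 3 were (H2-K1, H2-D1 and B2m). Of all tested genes 0.178% were lower there under SIX2 and 2.56% under control. B2m, the light chain of class I molecules, averaged 2473 ± 72.7 in GFP-positive SIX2 against 3770 ± 194 normalized counts in GFP-negative SIX2 libraries (SD, n = 3 each), a log2 difference of -0.61 (SE 0.07, adjusted p = 0.000779). H2-D1 had -0.52 (SE 0.08, adjusted p = 0.0158) under SIX2 and -0.61 (SE 0.08, adjusted p = 0.0021) under control. In GFP-positive libraries 4 of the 10 were higher with the SIX2 label while 2 were lower, and in GFP-negative libraries 2 were higher while 0 were lower. Of all tested genes 12.1% rose and 11.2% fell in the GFP-positive comparison, against 13.6% and 14.3% in the GFP-negative one.

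Promoter windows were found for 37 of the 50 members. Oas2, Usp18, Dhx58, Ifi204, Ifi27, Mx1, Mx2, Rtp4, Parp14, Parp9, Zbp1, Iigp1 and Ccl5 are named only. Of the 37, 23 held the ISRE core on either strand and 11 held the GAS letters TTCNNNGAA, which read the same on both strands. Over all 32851 windows of the same length, 3.44% held the ISRE core and 8.3% held the GAS letters. Of the 15 members lower in GFP-positive control libraries 14 had a window, and 10 of these held the ISRE core and 2 the GAS letters. Of the 26 tested members not called there 19 had a window, and 10 of these held the ISRE core and 7 the GAS letters. Oasl1, with the largest difference under control, held neither, and Stat2, which was not called in any comparison, held an ISRE core match on the opposite strand. A match to these letters is a description of the sequence and was not tested as a site.

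**Figure D5:**
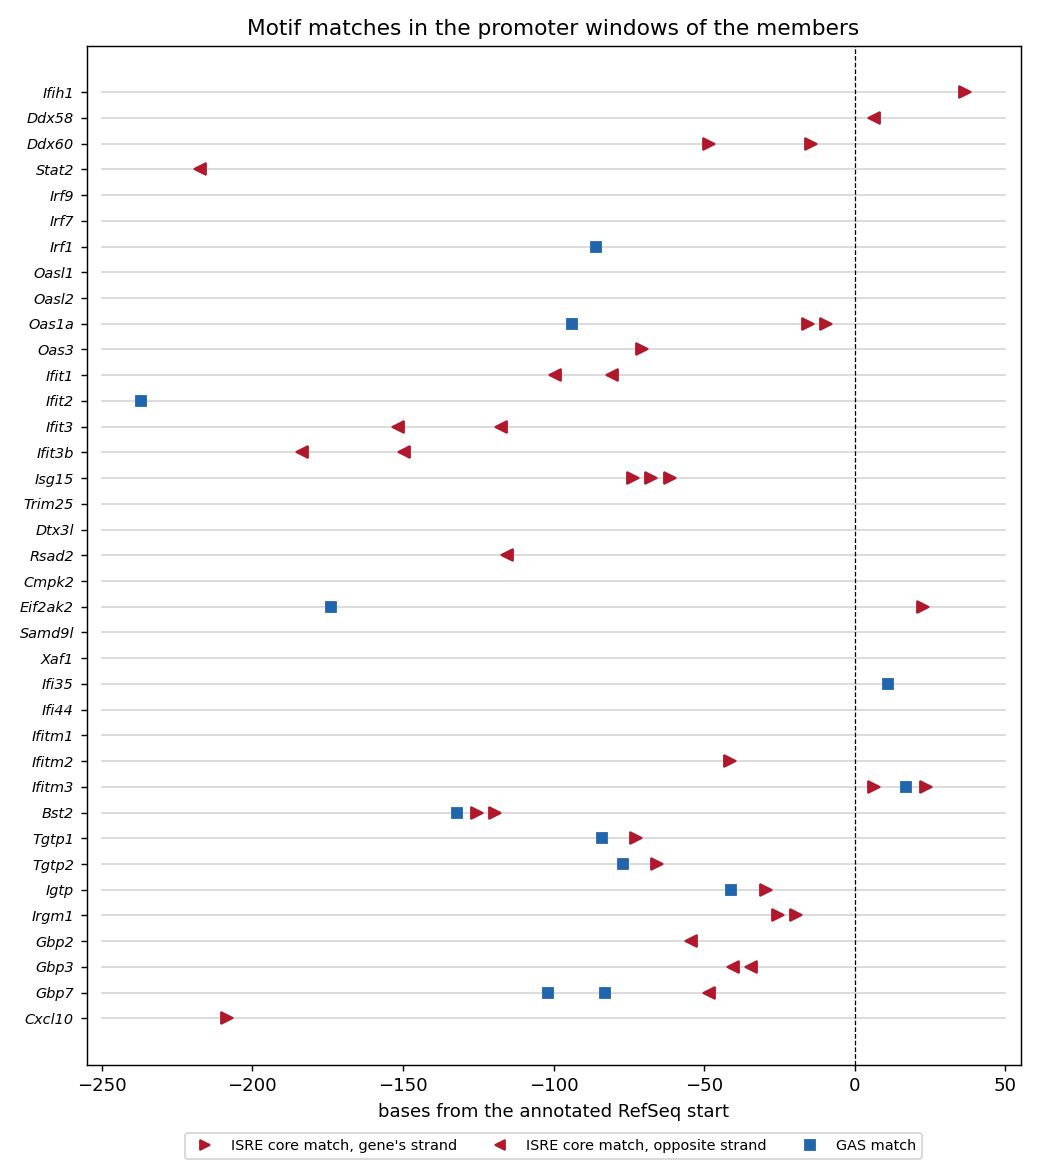
Position of each ISRE core match (triangles, pointing right on the gene's strand and left on the opposite strand) and each GAS match (squares) in the promoter window of the 37 members that had one, in bases from the annotated RefSeq start (dashed line). Of the 37 rows 23 carry an ISRE core match, and Oasl1, Oasl2, Irf7, Cmpk2 and Samd9l are among the rows with no match.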

How the data were processed

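Total RNA of 12 samples was sequenced from SMART-Seq2 libraries cut with Tn5 transposase, per the labels' protocols, which do not mark the strand. The 1 table deposited by the authors holds DESeq2-type normalized counts per gene, a signal scaled by a size factor per library. Per the submitters' processing notes, the tools were STAR 2.7.11a, RSEM 1.3.3 and DESeq2 1.42.0, with genome GRCm38. In each library 100% of values came out, within 1e-04 of a read, as whole reads times a constant, 0.553 to 2.14 normalized counts per read, and these reads gave depth, floors, edgeR 4.0.16 and DESeq2 1.42.0. The members and lists were chosen with earlier results of these data known, so no p-value is adjusted over them alone. The test was limma 3.58.1 (limma-trend, R 4.3.3) on log2(normalized count + 1) over 12 libraries in 1 fit of 4 group means, with a filter of 10 normalized counts in at least 3 libraries, Benjamini-Hochberg adjustment over 14580 genes and a threshold of 0.05. The log2(normalized count + 1) scale understates changes of low genes. Replicates of a group differed beyond sampling noise (chi-square per degree of freedom 7.71 to 49.4), so none was counted as a duplicate. Floors cover counting error only. All members were accounted for, with every library given for those called. Shared transcript sequence was counted in windows of 50 bases. Tests ran first on simulated data.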

Additional observations from a re-analysis of the deposited data

How the results depend on the processing

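Of 56 called member values, 29 kept the call in the same direction in every alternative run, and over 1386 alternatives 1233 kept it, 153 lost it and 0 reversed. The alternatives were pseudocounts of 0.5 and 5, filters, TMM and quantile scaling, only the compared libraries, library weights, the replicate block, single libraries left out, edgeR and DESeq2, and, chosen after seeing the data, thinning and removal of a GC trend. DESeq2 gave no adjusted p for 41 member values, 3 of which limma-trend called. Most of these 41 values were in the interaction.

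With only the compared libraries fitted, the SIX2 label gave 26 calls in place of 16 in GFP-negative libraries and 6 in place of 10 in GFP-positive ones, where the fit holds fewer samples. Members called in the interaction were 2 with library weights and 1 with DESeq2, in place of 0. With single libraries left out, counts ranged from 9 to 18 for the SIX2 label in GFP-negative libraries, from 8 to 11 in GFP-positive ones, from 9 to 17 between populations under the SIX2 label, from 9 to 18 under the control label and from 0 to 1 for the interaction. The lowest count between populations was without GFP-negative SIX2 library 3 under SIX2 and without GFP-negative control library 1 under control. Thinning to the smallest library gave 12 for the SIX2 label in GFP-negative libraries. Other counts stayed within 1.5 times.

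Over 18 pairs of libraries with the same replicate number, 0 correlated over 0.1 in their deviations from the group means (-0.203 to 0.0527). A low correlation cannot decide whether libraries of the same number share a mouse or a dish, since a shared origin need not raise it. With the replicate block the SIX2 label gave 14 calls in GFP-negative libraries and 10 in GFP-positive ones, with 13 between populations under either label and 0 in the interaction.

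Members near the floor of a few reads, and those sharing sequence with a relative, are limited by depth and counting.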

Other observations

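Of 41 tested interferon-stimulated genes outside the set, 4 were lower in GFP-positive libraries under the control label (Lgals3bp, Parp12, Apol9a and Ly6e) and 2 under the SIX2 label (Apol9a and Apol9b), where 2.56% and 0.178% of all tested genes were lower. With the SIX2 label 14 were higher and 3 lower in GFP-negative libraries, where 13.6% of all tested genes were higher and 14.3% lower. In GFP-positive libraries 15 were higher and 3 lower, where 12.1% of all tested genes were higher and 11.2% lower. Gbp6, a guanylate-binding protein, averaged 14467 ± 1191 normalized counts in GFP-positive SIX2 against 6920 ± 92.3 in GFP-positive control libraries, and 13391 ± 573 in GFP-negative SIX2 against 6009 ± 478 in GFP-negative control libraries (SD, n = 3 each). Its log2 differences were 1.06 (SE 0.07, adjusted p = 1.12e-06) and 1.16 (SE 0.07, adjusted p = 1.2e-06). Between the populations they were 0.11 (SE 0.07, adjusted p = 0.541) under SIX2 and 0.21 (SE 0.07, adjusted p = 0.125) under control, neither of them called. Slfn9, of the schlafen family, had 1.80 (SE 0.24, adjusted p = 0.000156) with the SIX2 label in GFP-positive and 1.33 (SE 0.24, adjusted p = 0.00112) in GFP-negative libraries, and Ifi211, of the HIN family, had 1.89 (SE 0.26, adjusted p = 0.000192) and 2.12 (SE 0.26, adjusted p = 6.81e-05).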
